A study of Mus musculus with 6 samples.

Results

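The nuclear genes of respiratory complexes II to V were followed in mouse biceps that had lost its nerve. They were taken from the table of expressed genes as protein-coding rows whose symbol begins with Sdha to Sdhd, Uqc, Cox and a digit, or Atp5, or is Cyc1 or Cycs. That gave 58 of 13105 genes: 42 structural subunits (cytochrome c included), 12 assembly factors and 4 others. The animals were CD-1 mice in which the roots C5 to T1 of 1 brachial plexus were cut out on postnatal day 5, and both biceps were frozen on postnatal day 26, 3 weeks later. The Denervated group holds the 3 biceps of the injured side and the Contralateral Control group the 3 biceps of the other side of the same mice, so the controls come from operated animals and no uninjured mouse was measured. Total RNA of the whole muscle, with all its cell types, was amplified and sequenced. In whole tissue, fewer fibres and less RNA per fibre cannot be told apart.

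Complexes II to V finish the work of the respiratory chain in the inner mitochondrial membrane. Complex II, succinate dehydrogenase, passes electrons from succinate to ubiquinone. Complex III hands them to cytochrome c, complex IV passes them to oxygen, and complex V, the ATP synthase, uses the resulting proton gradient to make ATP. All subunits of complex II are nuclear, whereas complexes III, IV and V mix nuclear subunits with subunits encoded in the mitochondrial genome. Several complex IV subunits exist in a form typical of heart and skeletal muscle and in a form found in most tissues.

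Levels are in TPM, a length-normalized measure of transcript abundance, read from deposited values taken as log2(TPM + 1). The labels' protocols state a depth of at least 35 to 40 M reads, but the files hold no read numbers, and the depth of each library is therefore unknown. The 7 skeletal muscle fibre markers, among them Acta1 and Ckm, summed to 16720 to 21700 TPM in denervated and 23690 to 27900 TPM in control biceps. The listed genes held 77.25% to 80.34% of the TPM total in denervated and 68.8% to 70.38% in control libraries, the rest lying outside the table. The part of this difference in the changes below was not tested. The whole table leaned upwards in denervated muscle: the median log2 fold change over the 12268 genes tested was 0.71. Median-of-ratios scaling, a rescaling of each library to its typical gene, brought that median to 0.01. A gene is therefore said to have fallen or risen only where limma called it on both scales, at an adjusted p under 0.05 (Benjamini-Hochberg over all genes tested). The 552 genes called lower on the deposited scale were the same 552 called lower on both. Likewise the 1922 called higher after scaling were those called higher on both. The deposited scale thus decided every fall and the scaled one every rise, and the other scale added no separate support. Unscaled log2 fold changes are denervated over control on the log2(TPM + 1) scale.

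Denervated biceps carried less transcript of nearly every structural subunit and of cytochrome c. Of the 57 members that passed the filter on low values, 37 fell and 0 rose, beside 4.50% of all tested genes called lower and 15.7% called higher on both scales. The structural subunits alone showed 36 falls among 42, with a median log2 fold change of -0.64 (-1.53 after scaling). Fibre markers moved beside them: 5 of 7 fell, with a median of -0.63 (-1.53 after scaling), while Mb, which encodes myoglobin, averaged 4180 TPM in denervated and 2039 TPM in control biceps and was called higher on the deposited scale alone. The part of fibre content in the fall of the subunits was not tested. The 12 assembly factors had a median of 0.48 (-0.35 after scaling), nearer to that of all genes. On the deposited scale alone, where 69.9% of all genes were called higher, 10 members were called higher. After scaling alone, where 18.6% of all genes were called lower, 47 members were called lower and 0 higher. Only after scaling were 10 of the 47 called lower (14.1% of all genes), and 1 of these, Uqcc, had been called higher on the deposited scale (2.12% of all genes). In 36 members every denervated library lay below every control library, which held for 4.96% of all tested genes, and in 10 members every one lay above, which held for 71.4%. All members together summed to 19860 to 22150 TPM in denervated and 28850 to 32060 TPM in control biceps.

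**Figure D1:**
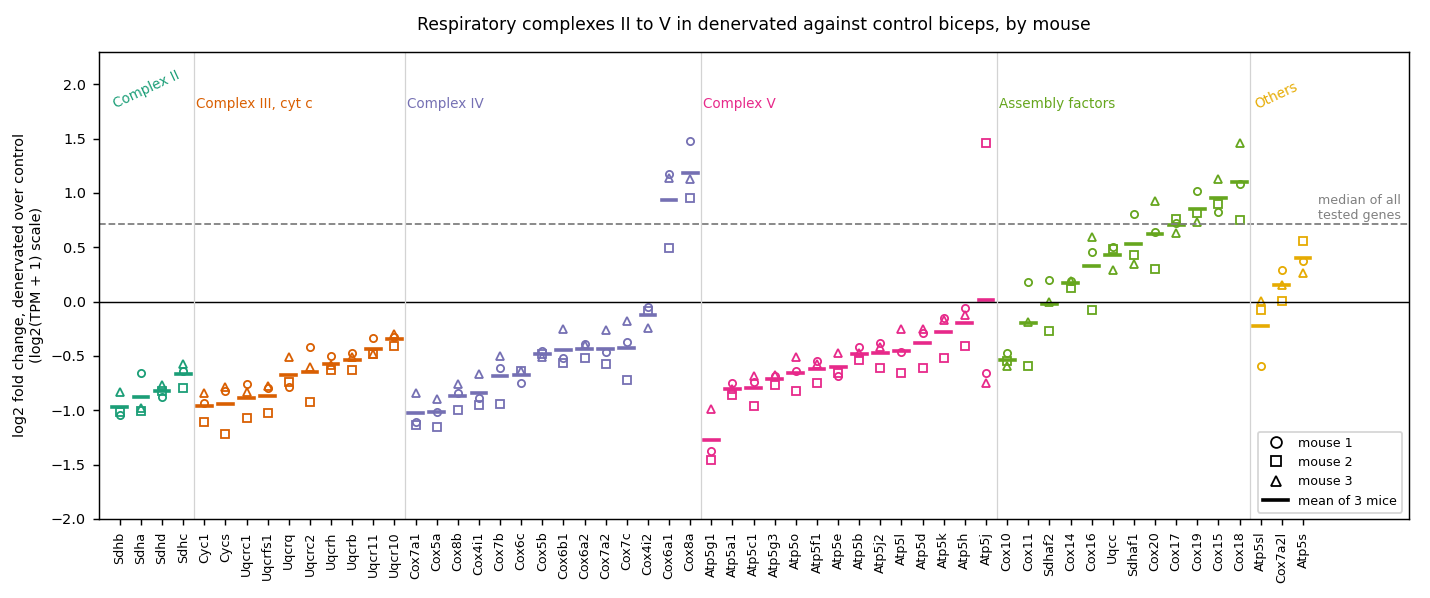
Log2 fold change of each tested member in each of 3 mice (open symbols) and on average (bars), on the log2(TPM + 1) scale, ordered by complex and role, with the median of all tested genes dashed. Subunit means lie below 0 apart from Cox6a1, Cox8a and Atp5j, whereas most assembly factor means lie between 0 and the dashed line or above it.

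All 4 subunits of complex II fell, by similar amounts. Sdhb, the iron-sulfur subunit, had 86.1, 77.0 and 84.1 TPM in the denervated biceps of mice 1, 2 and 3, against 179, 157 and 151 TPM in their control biceps. Its groups were far apart, and the log2 fold change of -0.97 ± 0.13 (SE; limma adjusted p = 3.04e-04) was the lowest of the complex. Sdhc, a membrane anchor and the most abundant subunit, had 158, 132 and 138 TPM in denervated against 248, 229 and 207 TPM in control biceps. Its log2 fold change of -0.67 was the smallest fall (adjusted p = 0.00233). Sdha, the flavoprotein that oxidizes succinate, averaged 104 ± 14.5 TPM in denervated and 190.4 ± 6.85 TPM in control biceps (SD, n = 3 each). Sdhd, the other anchor, averaged 121 ± 6.48 TPM in denervated and 215 ± 19.6 TPM in control biceps. Summed over the complex, denervated libraries held 0.566 times the control level, and all 4 calls were kept in each fit that left out a library or a mouse.

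All 9 nuclear subunits of complex III fell, and so did Cycs, which encodes somatic cytochrome c. Cyc1, the cytochrome c1 subunit that gives electrons to cytochrome c, had 152, 137 and 144 TPM in denervated biceps, against 291, 297 and 258 TPM in control biceps. This was the steepest fall of the complex (log2 fold change -0.96 ± 0.13, adjusted p = 2.82e-04). Cycs had 33.6, 27.5 and 35.8 TPM in denervated against 60.3, 65.3 and 62.6 TPM in control biceps (log2 fold change -0.94). The core proteins Uqcrc1 and Uqcrc2 changed by -0.89 and -0.65, and the Rieske iron-sulfur protein Uqcrfs1 by -0.87, while the hinge protein Uqcrh changed by -0.57. Uqcrq, a small subunit and the most abundant transcript of the complex, had 715, 649 and 654 TPM in denervated against 1237, 1085 and 932 TPM in control biceps. Uqcr10, another small subunit, had 484, 438 and 417 TPM in denervated against 607, 582 and 514 TPM in control biceps. This fall of -0.35 on the log2 scale was the smallest of the complex (adjusted p = 0.0456), and its call was lost in 7 of 9 fits that left out a library or a mouse (largest adjusted p = 0.198; kept without denervated replicate 1 or control replicate 3). Uqcr11 and Uqcrb each lost theirs in 5 of the 9, the largest adjusted p being 0.141 for Uqcr11 and 0.0765 for Uqcrb. These losses came without denervated replicate 2 or 3, control replicate 1, or mouse 2 or 3.

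Complex IV was less uniform than complexes II and III. Of its 14 nuclear subunit genes 11 fell, 2 were called higher on the deposited scale alone, and 1, Cox4i2, was near the limit of the filter and called lower only after scaling (-0.55). That scaled call of Cox4i2 was lost without denervated replicate 1 or 3 or control replicate 3 (adjusted p up to 0.0679). Cox7a1, the muscle form of subunit 7a, had 482, 434 and 480 TPM in denervated biceps, against 1039, 954 and 862 TPM in control biceps, the steepest fall of the complex (log2 fold change -1.03 ± 0.14, adjusted p = 2.72e-04). Cox5a, which has no second form, changed by -1.02 and Cox4i1, the common form of subunit 4, by -0.84. Smaller falls were seen for Cox6c (-0.67), Cox5b (-0.48), Cox6b1 (-0.45) and Cox7c (-0.43). Of these, Cox6c kept its call in every fit that left out a library or a mouse, whereas Cox5b lost it in 4 of 9 and Cox6b1 and Cox7c in 7 of 9 (largest adjusted p 0.0897, 0.126 and 0.248 in turn). The losses of Cox5b came without denervated replicate 3, control replicate 1, or mouse 2 or 3. Cox6b1 stayed called without denervated replicate 1 or control replicate 3, and Cox7c without denervated replicate 1 or 3. Cox4i1 had 397, 362 and 370 TPM in denervated against 735, 702 and 589 TPM in control biceps. Cox8b, the muscle form of subunit 8 and by the mean of all 6 libraries the most abundant transcript of the complex, had 881, 801 and 850 TPM in denervated against 1577, 1604 and 1439 TPM in control biceps (log2 fold change -0.87, adjusted p = 5.31e-04).

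Cox8a, the widespread form of subunit 8, went the other way on the deposited scale. It had 192, 187 and 176 TPM in denervated against 68.4, 96.5 and 79.6 TPM in control biceps. Limma called it higher on the deposited scale (adjusted p = 2.28e-04), at 1.19 ± 0.15 in log2 terms. Scaled libraries gave 0.29 and no call (adjusted p = 0.116), although adding a block for the mouse brought one (adjusted p = 0.0360). Cox6a1, the widespread form of subunit 6a, had 152, 135 and 161 TPM in denervated against 67.0, 96.0 and 72.7 TPM in control biceps. A log2 fold change of 0.93 (adjusted p = 9.73e-04) came to 0.04 after scaling (adjusted p = 0.867). Cox6a2, the muscle form, fell, with 1006, 756 and 809 TPM in denervated against 1321, 1083 and 1068 TPM in control biceps. The change was -0.44 on the log2 scale (adjusted p = 0.0351). Leaving out mouse 2 or 3, denervated replicate 2 or 3, or control replicate 1 or 2 ended this call (adjusted p up to 0.151). For subunit 7a both forms fell. Cox7a2, the widespread form, had 136, 124 and 114 TPM in denervated against 189, 185 and 137 TPM in control biceps (log2 fold change -0.43, adjusted p = 0.0344). The call of Cox7a2 was lost in 7 of 9 fits that left out a library or a mouse (largest adjusted p = 0.151; kept without denervated replicate 1 or control replicate 3). Cox4i2, a form of subunit 4 known from lung, had 0.765, 1.00 and 0.733 TPM in denervated against 0.832, 1.12 and 1.06 TPM in control biceps, and these overlapped.

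**Figure D2:**
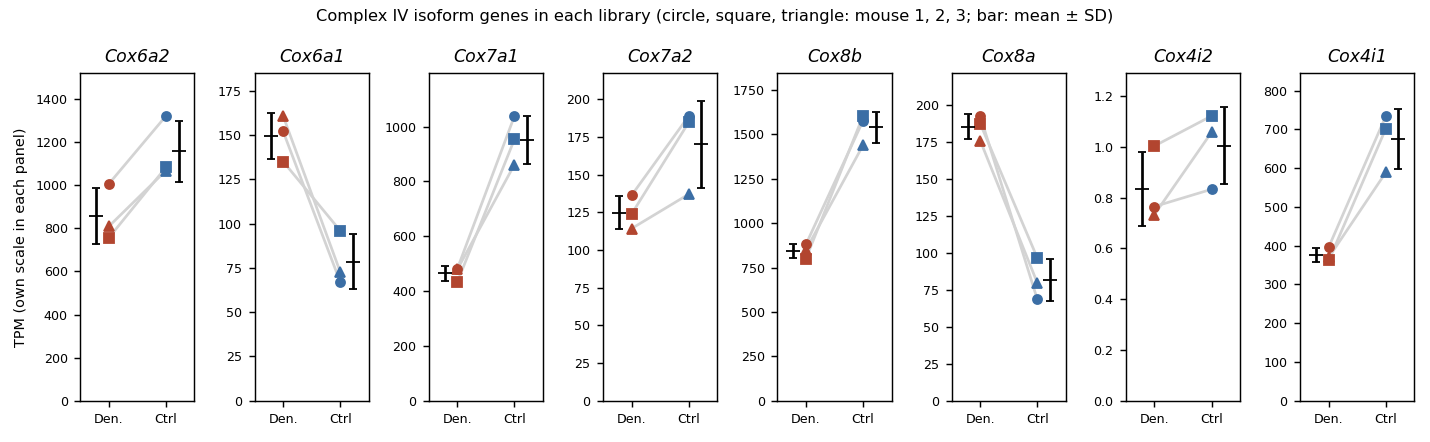
TPM of 8 complex IV isoform genes in each denervated (left, red) and control (right, blue) library, with lines joining the muscles of a mouse and bars for mean ± SD (n = 3 each); each panel starts at 0 and has its own scale. Cox6a1 and Cox8a slope opposite to the other 6 genes.

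A ratio of 2 genes within a library does not depend on how the library is scaled, apart from the pseudocount of 0.1 TPM used here. The log2 ratio of Cox8b to Cox8a was 2.20, 2.10 and 2.27 in denervated biceps, against 4.52, 4.06 and 4.17 in control biceps. The difference was -2.06 ± 0.15 (SE), so the muscle form stood at 0.239 times its control ratio. For Cox6a2 over Cox6a1 the log2 ratio was 2.73, 2.48 and 2.33 in denervated against 4.30, 3.50 and 3.87 in control biceps, a difference of -1.38 ± 0.26. For Cox7a1 over Cox7a2 it was 1.82, 1.81 and 2.07 in denervated against 2.46, 2.37 and 2.65 in control biceps, a difference of -0.59 ± 0.12. In each of these 3 pairs the groups did not overlap and all 3 mice moved towards the widespread form. With 3 libraries a group the exact two-sided permutation test cannot go below p = 0.1, which each of the 3 reached (0.125 adjusted over the 5 ratios computed). As a share of both forms, Cox8b made up 82.0% ± 0.91 in denervated and 95.0% ± 0.78 in control biceps (SD, n = 3 each). Cox6a2 made up 85.1% ± 1.73 in denervated and 93.6% ± 1.65 in control biceps, and Cox7a1 78.8% ± 1.67 in denervated and 84.9% ± 1.27 in control biceps. The muscle forms thus remained the main transcripts in every library. The log2 ratio of Cox4i2 to Cox4i1 differed by 0.60 ± 0.24 between groups (exact two-sided permutation p = 0.1), with Cox4i2 at 0.276% or less of both forms.

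**Figure D3:**
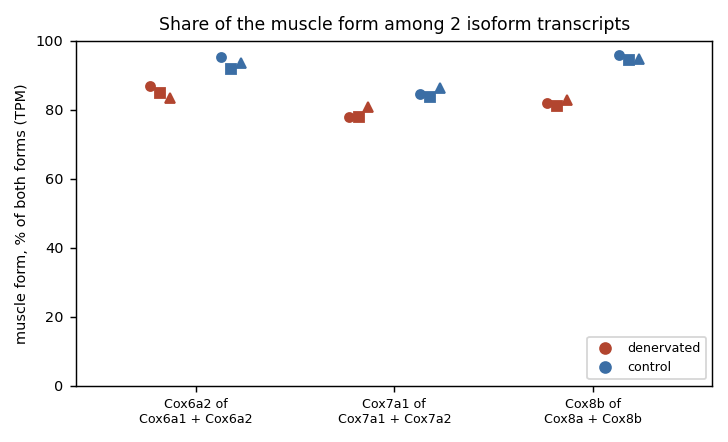
Share of the muscle form in the summed TPM of both forms of subunits 6a, 7a and 8, in percent, for each denervated (red) and control (blue) library, with circle, square and triangle for mice 1, 2 and 3. Denervated libraries lie below control libraries in each pair, with the widest gap for Cox8b at 82.0% against 95.0%.

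Markers of other cell types moved in the same libraries. The 5 adipocyte markers summed to 405 to 851 TPM in denervated and 198 to 299 TPM in control biceps, and 3 of them rose. The 4 measured macrophage markers summed to 40.3 to 57.7 TPM in denervated and 12.9 to 36.8 TPM in control biceps, and the 5 fibroblast markers to 761 to 1495 TPM in denervated and 416 to 1038 TPM in control biceps. No member of either list rose on both scales. The 2 measured satellite cell markers, Pax7 and Myf5, rose, to a summed 5.995 to 9.88 TPM in denervated biceps, against 1.35 to 1.65 TPM in control biceps. The 5 endothelial markers summed to 55.0 to 74.8 TPM in denervated and 59.8 to 82.0 TPM in control biceps, and the 4 smooth muscle and pericyte markers to 108 to 167 TPM in denervated and 147 to 202 TPM in control biceps. Of the smooth muscle and pericyte list Rgs5 fell (-0.76, adjusted p = 0.00427). None of the markers of these lists was at 0 in any library. The part of these cells in the isoform ratios was not tested.

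The upstream sequences of the Cox8 pair, whose ratio differed most, and of Cox6a1 and Sdha are shown because they set genes that fell (Cox8b and Sdha) beside genes called higher on the deposited scale (Cox8a and Cox6a1). Each run is the 250 bases before the RefSeq transcript start on GRCm38.p6, written 5′ to 3′ on the gene's strand. Capitals mark a match on either strand to CAGCTG (E-box), to GCGCA followed after any 1 base by GCGC (NRF1), or to CCGGAAG (GABP, an ETS factor).
Cox8b, chr7:140900447-140900696, minus strand: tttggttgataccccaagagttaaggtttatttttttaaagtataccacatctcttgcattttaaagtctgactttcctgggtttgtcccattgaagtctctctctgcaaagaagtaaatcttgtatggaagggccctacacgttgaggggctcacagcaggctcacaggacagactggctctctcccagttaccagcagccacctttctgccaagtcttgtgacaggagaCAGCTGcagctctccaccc
Cox8a, chr19:7217617-7217866, minus strand: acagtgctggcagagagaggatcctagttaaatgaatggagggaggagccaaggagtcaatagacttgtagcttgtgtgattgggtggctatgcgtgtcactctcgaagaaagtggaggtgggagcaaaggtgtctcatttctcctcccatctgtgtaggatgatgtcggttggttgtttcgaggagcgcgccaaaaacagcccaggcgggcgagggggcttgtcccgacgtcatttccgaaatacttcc
Cox6a1, chr5:115348959-115349208, minus strand: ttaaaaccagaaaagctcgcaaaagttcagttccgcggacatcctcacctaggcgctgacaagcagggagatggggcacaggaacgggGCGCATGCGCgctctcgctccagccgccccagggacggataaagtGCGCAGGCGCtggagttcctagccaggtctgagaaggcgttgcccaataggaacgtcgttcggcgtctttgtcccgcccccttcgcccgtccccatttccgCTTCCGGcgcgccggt
Sdha, chr13:74350241-74350490, minus strand: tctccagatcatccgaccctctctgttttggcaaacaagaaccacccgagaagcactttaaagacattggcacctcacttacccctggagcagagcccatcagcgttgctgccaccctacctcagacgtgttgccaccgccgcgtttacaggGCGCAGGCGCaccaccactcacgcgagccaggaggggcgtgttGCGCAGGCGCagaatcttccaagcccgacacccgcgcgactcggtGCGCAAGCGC
The Cox8b stretch held 1 CpG dinucleotide and an E-box starting 19 bases before the transcript start, and the Cox8a stretch held 11 CpG and none of the motifs searched. Cox6a1 held 26 CpG, 2 NRF1 matches and 1 GABP match, and Sdha held 21 CpG and 3 NRF1 matches. For the subunit 7a pair, not printed, the counts were 4 CpG in Cox7a1 and 14 in Cox7a2. NRF1 letters stood upstream of Sdha, which fell, and of Cox6a1, which was called higher on the deposited scale alone. Both genes were shown for their direction, so nothing about the role of these letters follows.

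The 41 members that could be matched by symbol had 45 RefSeq promoters. Among these, the GABP letters were found in 31.1% (6.91% of all 32851 promoters of the same length). The NRF1 letters were found in 13.3% (3.74% of all). That background spans 27025 symbols and was not limited to the 13105 genes measured here. Split by role, the GABP letters stood in 6 of 28 promoters of subunits that fell and 5 of 10 of assembly factors. For the NRF1 letters these counts were 3 of 28 and 0 of 10. A link between either motif and the fall was not tested. The ERR half-site AAGGTCA was found in 4.44% of member promoters and 4.08% of all. For the MEF2 letters, CTA followed after any 4 bases by TAG, the shares were 2.22% of member promoters and 3.2% of all, for the E-box 4.44% and 13.0%, and for the YY1 letters AAGATGGCG 2.22% and 0.61%. Both strands were searched, each motif was counted on its own whether or not it overlapped another, and no match says only that these letters are not in the window.

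In complex V 11 of 14 subunit genes fell. Atp5b, the catalytic beta subunit and by the mean of all 6 libraries the most abundant transcript of the members, had 3361, 3102 and 3210 TPM in denervated biceps, against 4494, 4516 and 4469 TPM in control biceps. Its spread between libraries was the smallest of all members, with a pooled SD of 0.04 on the log2 scale. The log2 fold change was -0.48 ± 0.14 (adjusted p = 0.0122). That SE rests on limma's variance, drawn towards the trend over all tested genes, and not on this small spread alone. The call was lost without control replicate 1 or without any 1 of the mice (largest adjusted p = 0.0956). Atp5a1, the alpha subunit that alternates with beta in the F1 head, averaged 347 ± 18.8 TPM in denervated and 607 ± 16.2 TPM in control biceps (SD, n = 3 each; log2 fold change -0.81). Atp5c1, the gamma subunit of the central stalk, changed by -0.80, Atp5o, the subunit OSCP, by -0.66, and Atp5f1, subunit b of the peripheral stalk, by -0.62. Atp5h and Atp5k, subunits d and e, overlapped between groups, with log2 fold changes of -0.20 and -0.28 on the deposited scale. Both were called lower only after scaling (-1.096 and -1.178). Leaving out denervated replicate 1 gave Atp5k a call on unscaled values too (adjusted p = 0.0357). Atp5e (-0.60), Atp5j2 (-0.47), Atp5l (-0.46) and Atp5d (-0.39) also fell. Of the 11 falls, 6 were kept in each fit that left out a library or a mouse. Beside Atp5b and Atp5g1, Atp5j2 and Atp5l lost theirs in 5 of 9 such fits and Atp5d in 7 of 9 (largest adjusted p 0.130, 0.144 and 0.244 in turn). Atp5j2 lost its call in the same 5 fits as Uqcr11, and Atp5l without denervated replicate 2, control replicate 1 or 2, or mouse 1 or 2. Atp5d stayed called without denervated replicate 1 or control replicate 3. Without Atp5j and Atp5g1, whose libraries varied widely, the other complex V subunits summed to 7121 ± 572 TPM in denervated and 10120 ± 465 TPM in control biceps (SD, n = 3 each), a ratio of 0.704. The same ratio was 0.661 for complex III and 0.650 for complex IV, and 1.44 for the assembly factors, without rescaling.

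**Figure D4:**
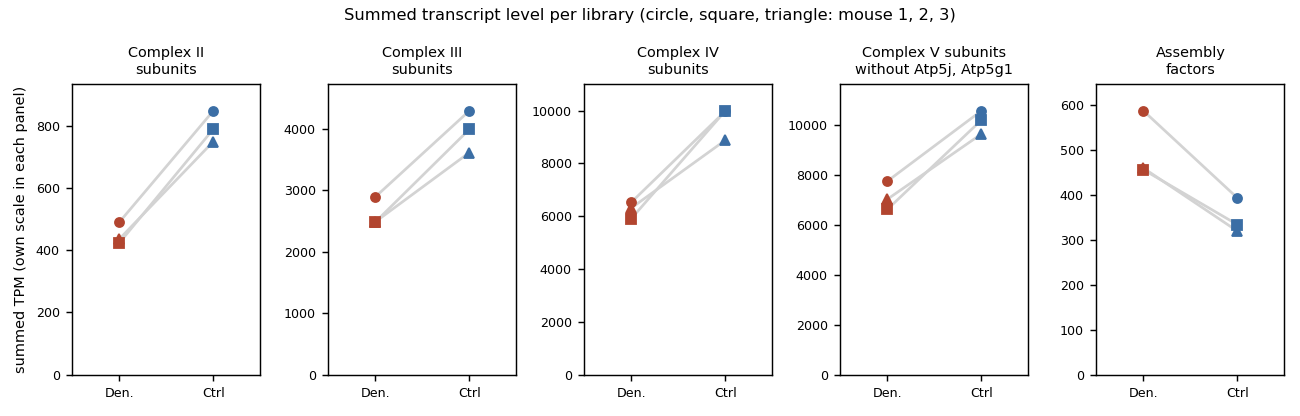
Summed TPM of the nuclear subunits of each complex (complex V without Atp5j and Atp5g1) and of the assembly factors in each denervated (left, red) and control (right, blue) library, with lines joining the muscles of a mouse; each panel starts at 0 and has its own scale. The subunit sums lie lower in all 3 denervated libraries and the assembly factor sums lie higher.

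The c subunit of the membrane rotor is encoded by several genes whose mature proteins are the same, of which Atp5g1 and Atp5g3 were measured. Atp5g3 had 366, 335 and 311 TPM in denervated biceps, against 589, 573 and 498 TPM in control biceps (log2 fold change -0.71, adjusted p = 0.00166). Atp5g1 had 333, 608 and 1338 TPM in denervated against 865, 1671 and 2658 TPM in control biceps. Libraries of 1 group differed by more than the groups did, although Atp5g1 was lower in each mouse, at 0.385, 0.364 and 0.503 times its control level in mice 1, 2 and 3. Its log2 fold change of -1.27 ± 0.50 had an adjusted p of 0.0416, and 3.6e-05 with the mouse as a block. In unblocked fits, leaving out mouse 1 or 2, denervated replicate 1 or 2, or control replicate 2 or 3 ended the call (adjusted p up to 0.218). The log2 ratio of Atp5g1 to Atp5g3 differed by -0.56 ± 0.84 between groups (exact two-sided permutation p = 0.5). Within mice 1, 2 and 3 it differed by -0.69, -0.69 and -0.31, all of one sign (exact sign-flip p = 0.25, the smallest that 3 mice allow).

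Atp5j, subunit F6 of the peripheral stalk, was the 1 subunit called on neither scale. It had 1112, 5517 and 3610 TPM in denervated biceps, against 1753, 2011 and 6059 TPM in control biceps. The groups overlapped, and Atp5j was lower in the denervated biceps of mice 1 and 3 and 2.74 times higher in that of mouse 2. Its pooled SD of 1.09 on the log2 scale was larger than that of 99.2% of all tested genes, and Atp5g1 and Cox7b came next among the members at 0.91 and 0.37. The level of Atp5j ran beside that of mt-Atp8, a complex V subunit encoded in mitochondrial DNA, at 2.48% to 3.14% of mt-Atp8 in denervated and 2.65% to 3.48% in control libraries. Over the 6 libraries Pearson's r of their log2 TPM was 0.997 and Spearman's rho 0.943, as a description of genes measured in the same libraries. The transcript of mt-Atp8 has 204 bases, and those of Atp5j have 203 to 927. The level of mt-Atp8 ran from 44800 to 175700 TPM, a range of 3.92-fold. That of mt-Atp6, also mitochondrially encoded, ran from 9179 to 17420 TPM, a range of 1.90-fold. Short annotated transcripts were also found for members with a smaller pooled SD than Atp5j. The shortest had 159 bases for Uqcc (pooled SD 0.13), 180 for Cox7b (0.37) and 198 for Sdha (0.14). For Atp5g1 (0.91) the shortest had 596 bases. Whether short transcripts were quantified reliably was not tested. Cox7b had 515, 739 and 738 TPM in denervated against 787, 1422 and 1048 TPM in control biceps, and was called lower (adjusted p = 0.0232). That call was lost without denervated replicate 1, control replicate 2 or mouse 2 (largest adjusted p = 0.107).

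**Figure D5:**
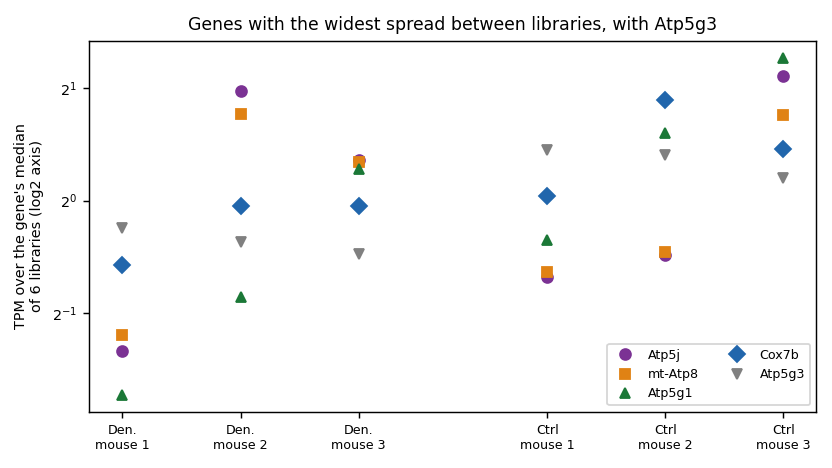
TPM of 5 genes in each library, divided by the gene's own median over the 6 libraries, on a log2 axis, with denervated libraries left and control libraries right. Atp5j and mt-Atp8 lie close to each other in each library, while Atp5g3, shown for scale, stays within a range of 1.90-fold.

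Of the 12 assembly factors 1 fell on both scales. On the deposited scale 7 of the 12 were called higher, beside 69.9% of all genes called higher there. After scaling 0 were called higher and 6 lower, beside 15.7% of all genes called higher and 18.6% called lower there. The difference between the factors and the subunits was not tested. Cox10, which makes the haem precursor of complex IV, fell, with 9.995, 8.52 and 9.62 TPM in denervated against 14.3, 12.9 and 15.1 TPM in control biceps (log2 fold change -0.54, adjusted p = 0.00808, or 0.0906 without mouse 3). Cox15, which acts after Cox10 in making haem A, had 16.2, 16.5 and 17.8 TPM in denervated against 8.72, 8.40 and 7.61 TPM in control biceps. The change of 0.95 on the log2 scale (adjusted p = 3.97e-04) came to 0.12 after scaling. Cox18, which helps to insert a mitochondrially encoded subunit into the membrane, had 13.0, 10.2 and 13.6 TPM in denervated against 5.63, 5.67 and 4.30 TPM in control biceps. It had the highest log2 fold change of the factors, at 1.096 on the deposited scale (adjusted p = 5.40e-04) and 0.30 after scaling (adjusted p = 0.141). Cox17, a copper carrier and the most abundant factor, had 304, 229 and 213 TPM in denervated against 183, 135 and 137 TPM in control biceps. Its log2 fold change of 0.71 turned to -0.19 after scaling (adjusted p = 0.365). Cox19 and Cox20 were also called higher on the deposited scale (0.85 and 0.62), as were Sdhaf1 (0.53) and Uqcc (0.43), factors of complexes II and III. After scaling these came to 0.03, -0.24, -0.26 and -0.44 in turn, and of them Uqcc was called lower (adjusted p = 0.0163). That scaled call was lost without denervated replicate 1 or 3 or control replicate 1 or 3 (adjusted p up to 0.0632). On the deposited scale the calls of Sdhaf1 and Uqcc were lost in 6 and 7 of 9 fits that left out a library or a mouse. The largest adjusted p was 0.0913 for Sdhaf1 and 0.110 for Uqcc. The call of Cox20 was lost without mouse 3 (adjusted p = 0.104). That of Sdhaf1 was lost without denervated replicate 1, control replicate 2 or 3, or any 1 of the mice. For Uqcc the losses came without denervated replicate 2, any 1 of the control replicates, or any 1 of the mice. Cox11, Cox14, Cox16 and Sdhaf2 were called lower only after scaling, which with Cox10 and Uqcc makes the 6. With 1 library left out, the scaled call of Cox16 (adjusted p = 0.0478) was kept only without control replicate 3 (adjusted p otherwise up to 0.132).

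The other 4 members are neither core subunits nor classic assembly factors. Cox7a2l, which links complexes III and IV into supercomplexes, had 122, 92.1 and 89.3 TPM in denervated against 99.1, 91.6 and 80.4 TPM in control biceps, and its log2 fold change of 0.15 became -0.74 after scaling (adjusted p = 0.00110). Atp5s and Atp5sl were both under 8 TPM in every library. Atp5sl overlapped between groups, with a log2 fold change of -0.22 on the deposited scale (adjusted p = 0.276), and was called lower only after scaling (-0.97, adjusted p = 0.00563). For Atp5s the values were 0.40 on the deposited scale and -0.37 after scaling (adjusted p = 0.0663). The call of Atp5s on the deposited scale (adjusted p = 0.0333) was lost in the blocked fit (adjusted p = 0.0547) and in 7 of 9 fits that left out a library or a mouse (kept without denervated replicate 1 or 3). Atp5l-ps1, protein-coding in the deposited table but a processed pseudogene in GENCODE M21, stayed under the filter at 0.906 to 2.62 TPM in denervated and 0 to 2.07 TPM in control biceps.

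Other genes of these complexes outside the symbol rule were read from a list of 30, of which 25 were measured. Of these 5 fell and 1 rose, and the median log2 fold change was 0.17 (-0.68 after scaling). Subunits on the list fell as the members did: Ndufa4, a complex IV subunit named for complex I (-0.74), and Usmg5, a small complex V subunit (-0.55). The other 3 that fell were the factors Atpaf1 (-0.56), Coa5 (-0.36) and Taco1 (-0.41). The gene that rose was Atpif1, the inhibitor that keeps complex V from running in reverse, with 91.8 TPM on average in denervated and 32.4 TPM in control biceps. On the log2 scale this was a change of 1.49 ± 0.21 (adjusted p = 3.14e-04) and 0.60 after scaling (adjusted p = 0.0231). Of the 36 measured complex I subunits 22 fell and 0 rose, with a median of -0.56 (-1.44 after scaling), beside -0.64 (-1.53) for the subunits of complexes II to V. The difference between these lists was not tested. Of the 6 mitochondrially encoded partners 5 fell, with mt-Co1 at 0.549 and mt-Cytb at 0.718 times the control mean, and mt-Atp8 was called on neither scale.

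Reads of small respiratory genes can match processed pseudogenes or other genes, and the split is then uncertain. Of the 58 members, 34 shared under 10% of their 31-mers with other GENCODE genes, among them Cox7a1, Cox8a, Cox8b, Sdha, Sdhb and Sdhd at 0%. Over 50% was shared by Cox20 (89.2%, mostly with Hnrnpu), Sdhaf1 (69.9%, mostly with E130208F15Rik), Atp5l-ps1 (68.4%, mostly with Atp5l) and Cox16 (55.2%, mostly with Gm20498). GENCODE labels each of these partners protein-coding. Cox6a1 shared 18.5%, with a pseudogene, Cox6a2 6.2% and Cox7a2 3.4%. In the authors' deposited table, 30 of the 58 members were lower and 9 higher at their adjusted p under 0.05. The share of all genes at that threshold was not computed, so these counts stand without a background. The authors' list of 21 down-regulated genes held 0 members, and so did their list of 336 up-regulated genes.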

How the data were processed

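Biceps RNA of 3 mice was measured in 6 libraries. The tool kallisto (version 0.42.1) and the mouse build mm10 are named in the submitters' processing notes. Per the labels' protocols, RNA was amplified before paired 75-base sequencing. The authors deposited log2 values for 13105 genes, read here as log2(TPM + 1) because no header names the unit. The step from transcripts to genes, and the test behind the p-values the authors deposited, are not given in the sources used here. The authors' signed fold score was not used.

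Genes with at least 1 TPM in at least 3 libraries (12268) entered a linear model of group in limma (version 3.58.1, R 4.3.3; lmFit, then eBayes with a trend), with Benjamini-Hochberg adjustment over all of them. Where nothing else is said, p-values are limma's, and the pairing of muscles by mouse is left out. The variance behind them is each gene's spread between the libraries within a group, drawn towards a trend over all tested genes. Scaling factors were 1.60, 1.27 and 1.27 for denervated and 0.724, 0.789 and 0.697 for control replicates 1 to 3. Isoform ratios were tested by exact permutation in Python 3.11.15 with scipy 1.17.1. The code was tested on simulated data.

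The labels give both muscles of a mouse the same number, and their deviations from group means correlated at 0.312, 0.183 and 0.411. This pairing was fitted as a block. The alternatives were other scalings, pseudocounts, filters and variance models and leaving out libraries or mice. Values in all libraries are given for isoform pairs and, in each complex and among the factors, for the most abundant gene and the lowest and highest fold changes. Coordinates and 31-mers come from GENCODE M21 (GRCm38) and promoters from RefSeq on GRCm38.p6. The members, lists and rules were chosen with earlier results of these data known. The erythroid markers (2 of 5 measured), brown adipocyte markers (1 of 2 tested) and cardiac markers (0 of 3 measured) did not rise or fall on both scales. 1 further list of cell type markers is not reported here.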

Additional observations from a re-analysis of the deposited data

How the results depend on the processing

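The counts of members called lower (37), structural subunits called lower (36) and members called higher (10) on the deposited scale stayed within 1.5 times under a pseudocount of 0.1, no filter, a mean of at least 5 TPM, eBayes without trend and the mouse as a block. With the block alone, 37 members were lower and 9 higher. Median-of-ratios scaling gave 0 members called higher and 6 assembly factors called lower (1 and 6 with the block added), and quantile normalization gave 1 and 5. Leaving out 1 library or 1 mouse gave 23 to 36 members lower, 6 to 10 higher, 22 to 35 subunits lower and 0 to 1 factors lower. The lowest counts, 23 members and 22 subunits, came without mouse 2, and 6 higher and 0 factors without mouse 3. Of the 37 falls, 22 were kept in all 9 such fits. After scaling, leaving out 1 library, an alternative chosen after seeing the data, gave 43 to 46 members lower, 0 higher, 37 to 39 subunits lower and 4 to 5 factors lower, and 36 of the 37 falls were kept in all 6 fits, all but Atp5g1.

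Direction turned with median-of-ratios scaling, with or without the block, for Cox17 (-0.19), Cox20 (-0.24), Sdhaf1 (-0.26), Uqcc (-0.44), Atp5s (-0.37), Cox16 (-0.55), Cox14 (-0.72), Cox7a2l (-0.74) and Atp5j (-0.88). Quantile normalization also turned Cox20 (-0.12), Sdhaf1 (-0.24), Uqcc (-0.31), Atp5s (-0.37), Cox16 (-0.41), Cox14 (-0.51) and Cox7a2l (-0.49). With a library or mouse left out, Atp5j ran from -0.70 to 0.69 and Sdhaf2 from -0.14 to 0.10. Quantile normalization lost the calls of Atp5b (-0.18), Cox7b (-0.83) and Atp5g1 (-1.44), and eBayes without trend that of Uqcr10 (adjusted p = 0.0605). The causes were not tested.

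The isoform ratios kept their direction with a pseudocount of 1 and with each library or mouse left out, for the pairs Cox8b to Cox8a, Cox6a2 to Cox6a1 and Cox7a1 to Cox7a2. As within-mouse differences, the replicate block, they gave an exact sign-flip p of 0.25, the smallest that 3 mice allow. Planned ratios with Cox6b2 and Atp5g2 could not be computed and are not analysed here. The deposited values hold no counts, so what depth limits cannot be given.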
